A study of Mus musculus with 9 samples.

Results

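The Cyp2 family genes other than Cyp2e1 were followed in fibrotic mouse livers in which the long noncoding RNA lnc-Helf was targeted by either of 2 short hairpin RNAs. The members were chosen by name alone, as every symbol made of Cyp2, a subfamily letter and a number, without Cyp2e1, which gave 40 of the 17305 genes in the table. Of these, 14 lie on chromosome 19 (the Cyp2c genes), 11 on chromosome 7 (Cyp2a, 2b, 2f, 2g, 2r and 2s), 8 on chromosome 15 (Cyp2d), 6 on chromosome 4 (Cyp2j) and 1 on chromosome 3 (Cyp2u1). Liver RNA came from 9 male Balb/c mice, 8 weeks old by the labels, all given carbon tetrachloride (CCl4), a liver toxicant, for 8 weeks and an AAV8 virus through the tail vein. The virus carried shRNA 1 against lnc-Helf (lnc-Helf-sh1# + CCl4, 3 mice), shRNA 2 against it (lnc-Helf-sh2# + CCl4, 3 mice) or a negative control (NC + CCl4, 3 mice), and these groups are called the sh1, sh2 and NC livers. The comparison asks which genes differ after knockdown of lnc-Helf in the injured liver. All 9 mice had CCl4, so no uninjured liver serves as a baseline. The labels put the virus 4 weeks after the first CCl4 dose at 1e+12 pfu, while the study's methods give another week and dose. AAV8 is known to transduce mainly hepatocytes in mouse liver, and no source used here names the promoter that drives the hairpins.

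Cytochromes P450 of family 2 are heme enzymes of the endoplasmic reticulum that insert an oxygen atom into drugs, steroids and fatty acids, with electrons passed on by the reductase Por. In the mouse the family has expanded into tandem clusters of near-identical genes, many of them expressed mainly in hepatocytes. The Cyp2b and several Cyp2c genes are classic targets of the nuclear receptor CAR, and a number of members differ between the sexes under control of growth hormone. Many of the Cyp2c enzymes turn arachidonic acid into epoxides or hydroxy acids. Cyp2e1 itself activates CCl4 and was not analysed here.

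The libraries held 14265875 to 16816431 expected counts each, and Alb, the albumin gene of hepatocytes, took 6.81 to 12.4% of them. A filter on low counts kept 33 of the 40 members for testing, and the other 7 are given at the end. Levels are compared between genes in TPM, which is scaled to transcript length, and between livers in CPM, counts scaled to a common library size with TMM factors. A gene passed where edgeR's quasi-likelihood test gave an adjusted p under 0.05 over the 13059 genes tested. Replicate 1 of the sh2 livers stood apart within the family: it had the lowest CPM of the 9 libraries in 15 of the 33 tested members, against 12.7% of all genes tested. Several results that rest on it are therefore also given without it. NC replicate 3 was the highest of the 9 libraries in 9 of the 33 members and the lowest in 5, against 15.54% and 16.45% of all genes tested.

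The family's level was carried by a few genes. Mean TPM over the 9 livers ran between 1.09 and 1226 among the tested members, and 12 of the 33 were above 100 TPM. Cyp2d9, a testosterone hydroxylase that is higher in male mice, was the highest member with 1416 ± 91.5 TPM in sh1 livers, 1065 ± 232 TPM in sh2 livers and 1197 ± 43.5 TPM in NC livers (SD, n = 3 each). Cyp2f2, an enzyme of periportal hepatocytes that activates naphthalene in mouse lung, followed with 1337 ± 140 TPM in sh1, 1056 ± 328 TPM in sh2 and 1128 ± 101 TPM in NC livers. These 2 genes lay within their spread of each other in every group. Cyp2a12, another steroid hydroxylase, had 992 ± 69.2, 849 ± 157 and 908 ± 10.9 TPM in sh1, sh2 and NC livers, and Cyp2d26 had 797 ± 26.4, 900 ± 94.6 and 902 ± 75.6 TPM. Then came Cyp2c70, which makes the muricholic acids of mouse bile, with mean 525 TPM over all livers, Cyp2d10 with 509, and the CAR target Cyp2c29 with 504. The means of these 3 lie closer together than the spread of Cyp2c29, whose coefficient of variation over the 9 livers was 51.9%. Cyp2d26 varied least, with a coefficient of 9.35%, and Cyp2a4 most, with 142%.

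**Figure D1:**
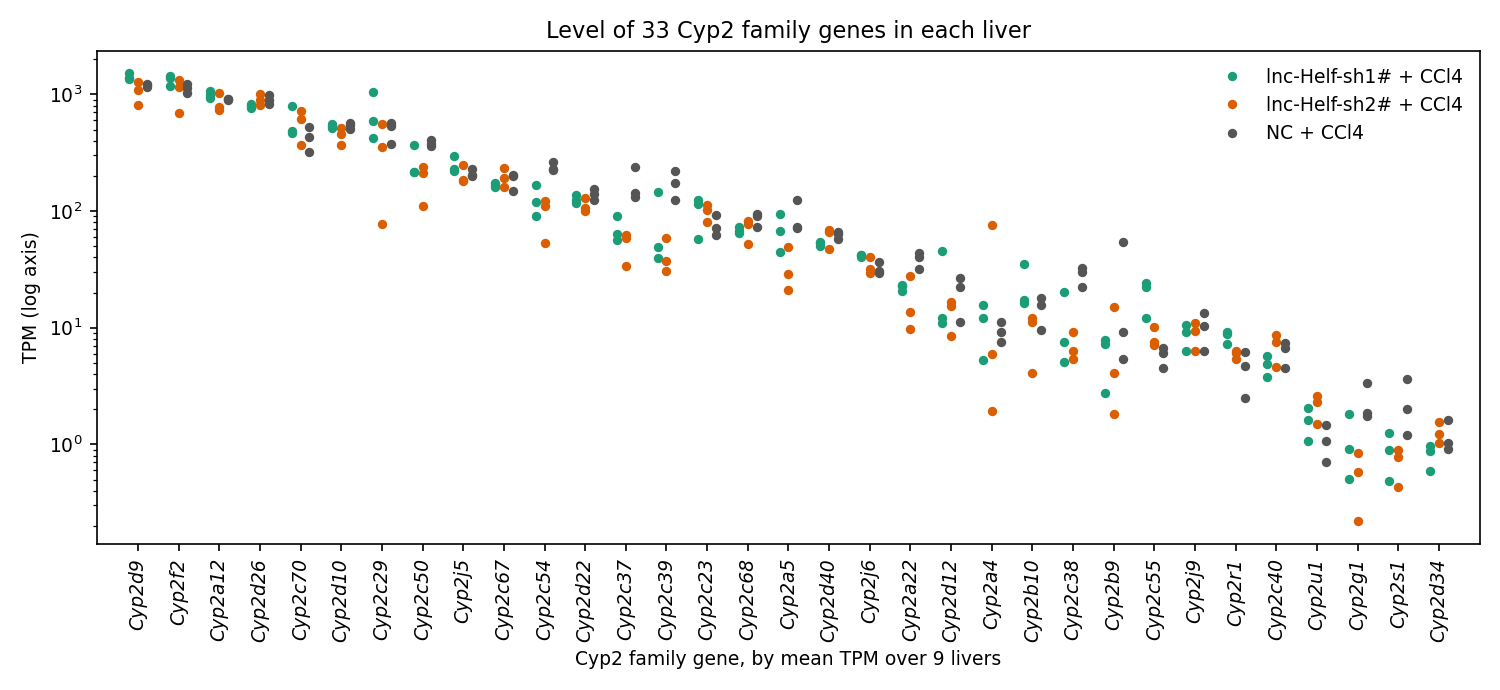
Level of each of the 33 tested Cyp2 genes in every liver, in TPM on a log axis, with genes ordered by mean TPM over the 9 livers and 1 point per liver coloured by group. Cyp2d9 (mean 1226 TPM) stands at the left and Cyp2d34 (mean 1.09 TPM) at the right, and Cyp2c37, Cyp2c38, Cyp2c39 and Cyp2c54 show the NC points above most of the shRNA points.

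Summed over the 40 members, the family had 7909 ± 703 TPM in sh1 livers, 6515 ± 901 TPM in sh2 livers and 7611 ± 172 TPM in NC livers (SD, n = 3 each). The ratio of the group sums was 1.04 for sh1 over NC and 0.856 for sh2 over NC in TPM. In CPM the same ratios were 1.15 and 1.02, so for sh2 the direction depended on the scale. Without sh2 replicate 1, the sh2 ratio in TPM was 0.921. The Cyp2d genes gave 38.2% of the family's TPM, Cyp2c 27.7%, Cyp2f2 16.0%, Cyp2a 13.9% and Cyp2j 3.64%. The Cyp2c sum was 2184 ± 664 TPM in sh1, 1657 ± 509 TPM in sh2 and 2272 ± 251 TPM in NC livers. In CPM it was 1974, 1793 and 2919 in sh1 livers and 1098, 1991 and 2409 in sh2 livers, against 1921, 2168 and 2258 in NC livers, so the groups overlapped. The ratio to NC was 0.961 for sh1 and 0.729 for sh2 in TPM, and 1.054 and 0.866 in CPM, so for sh1 the direction depended on the scale. Without sh2 replicate 1, the sh2 ratio of the Cyp2c sum in TPM was 0.856. Of the sh2 livers, only that one lay below the NC livers in CPM, so the sh2 ratio in CPM rested on it. Group sums give no account of how single genes moved, since the median log2 fold change of the tested members was 0.004 for sh1 and 0.039 for sh2, against 0.020 and 0.005 over all genes tested.

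Several members are so alike that reads of 50 bases cannot always be assigned to 1 of them, which bears on the values of such members. In the coding sequences, Cyp2c37 and Cyp2c50 were 96.1% identical, Cyp2c37 and Cyp2c54 95.1%, Cyp2c38 and Cyp2c39 94.2%, Cyp2a4 and Cyp2a5 94.8% and Cyp2a12 and Cyp2a22 97.0%. Of all 50-base stretches of the longest transcript, 30.1% were shared with another gene for Cyp2c37, 30.7% for Cyp2c50, 25.7% for Cyp2c54, 7.45% for Cyp2c38 and 12.0% for Cyp2c39. For Cyp2c55 the share was 0.514%, and for Cyp2c70, Cyp2c23, Cyp2f2, Cyp2r1 and Cyp2s1 it was 0%. The authors' expected counts divide shared reads by a model, so members with divided reads are less certain one by one than as a sum. Counts that are not whole stood in all 9 libraries for Cyp2c37, Cyp2c50, Cyp2c54, Cyp2a4, Cyp2a5, Cyp2a12 and Cyp2a22. For Cyp2c38 and Cyp2c39 they stood in 0 libraries, so no divided reads show in the counts of that pair. The stretch around the heme-binding cysteine shows how near the genes are. It is 78 bases of exon 9, the last of 9 exons, coding bases 1294 to 1371, taken from the reference (GRCm38 with GENCODE annotation, not from these mice). It is shown because it sets Cyp2c37, Cyp2c50 and Cyp2c54 against Cyp2c38 and Cyp2c39, the genes on which the comparison turns, and against Cyp2c55, which went the other way. In Cyp2c37 the capitals mark the codon of the cysteine, and in the other genes they mark each base that differs from Cyp2c37.
Cyp2c37, chr19:40011729-40011806, plus strand: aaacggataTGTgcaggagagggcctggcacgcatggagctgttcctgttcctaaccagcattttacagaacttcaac
Cyp2c50, chr19:40113436-40113513, plus strand: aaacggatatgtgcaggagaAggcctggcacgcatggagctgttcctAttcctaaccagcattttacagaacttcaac
Cyp2c38, chr19:39391033-39391110, minus strand: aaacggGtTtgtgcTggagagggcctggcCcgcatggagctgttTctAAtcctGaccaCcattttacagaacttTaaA
Cyp2c39, chr19:39568015-39568092, plus strand: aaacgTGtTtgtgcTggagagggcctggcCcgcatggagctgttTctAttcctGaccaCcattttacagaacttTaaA
Cyp2c55, chr19:39042019-39042096, plus strand: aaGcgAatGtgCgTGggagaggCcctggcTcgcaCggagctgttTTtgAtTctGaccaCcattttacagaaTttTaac

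Over these 78 bases, Cyp2c54 (chr19:40038339-40038416, minus strand) had 0 differences from Cyp2c37, so a read from there cannot tell them apart. Cyp2c50 had 2 differences, Cyp2c38 and Cyp2c39 11 each and Cyp2c55 17, with no run longer than 12 bases free of a difference in Cyp2c55.

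With shRNA 2, the members that passed were 3 Cyp2c genes, all lower: Cyp2c37, Cyp2c38 and Cyp2c39. That is 9.09% of the 33 tested members, against 3.89% of all genes tested that were lower, and 1.64% of all genes that were lower with a fold change above 2, as these 3 members were. No member was higher, against 4.71% of all genes. At an unadjusted p under 0.05, 9 members were lower (14.9% of all genes) and 4 higher (16.3% of all genes). In 9 members every sh2 liver lay below every NC liver (16.1% of all genes), and in 4 every sh2 liver lay above (16.8% of all genes). DESeq2 gave 8 members lower (7.28% of all genes it tested) and 0 higher (8.33%). The 5 that only DESeq2 added were Cyp2a5, Cyp2a22, Cyp2c54, Cyp2g1 and Cyp2s1.

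Cyp2c37, an arachidonic acid hydroxylase of pericentral hepatocytes and a CAR target, was measured at 35.3, 66.3 and 75.6 CPM in sh2 livers, against 131, 136 and 222 CPM in NC livers. The sh1 livers had 68.9, 59.7 and 93.1 CPM. Every liver with a hairpin against lnc-Helf thus lay below every NC liver. Its log2 fold change for sh2 was -1.46 (standard error 0.30, edgeR adjusted p = 0.0309). The call did not hold without NC replicate 1 (adjusted p = 0.0739), NC replicate 3 (0.104), sh1 replicate 2 (0.0535) or sh2 replicate 2 (0.0886), all from edgeR. It held without sh2 replicate 1, the library that stood apart (0.0262 in edgeR). Without NC replicate 1, NC replicate 3 or sh2 replicate 2, 0 of all genes tested passed in this comparison in edgeR.

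Cyp2c38 and Cyp2c39, a pair of neighbours of which the second is known to hydroxylate retinoic acid, had the lowest fold changes of the members that passed. Cyp2c38 was measured at 7.62, 11.4 and 15.8 CPM in sh2 livers, against 41.6, 29.2 and 42.0 CPM in NC livers, and its log2 fold change was -1.69 (standard error 0.43, edgeR adjusted p = 0.0449). Cyp2c39 was measured at 32.5, 42.8 and 73.3 CPM in sh2 livers, against 174, 120 and 209 CPM in NC livers, and its log2 fold change was -1.76 (standard error 0.47, edgeR adjusted p = 0.0484). The groups did not overlap for either gene. Both calls are near the threshold and held in 1 of 9 fits that left out a library, the one without sh1 replicate 3. The edgeR adjusted p over the 9 fits was 0.0158 to 0.125 for Cyp2c38 and 0.0179 to 0.141 for Cyp2c39. The log2 fold changes stayed between -2.00 and -1.49 for Cyp2c38 and between -2.17 and -1.55 for Cyp2c39.

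Cyp2c50 and Cyp2c54, the near copies of Cyp2c37, were lower in sh2 livers without passing. Cyp2c54 was measured at 52.3, 131 and 127 CPM in sh2 livers, against 216, 203 and 232 CPM in NC livers, with a log2 fold change of -1.07 (edgeR adjusted p = 0.0613). Cyp2c50 was measured at 117, 237 and 290 CPM in sh2 livers, against 373, 347 and 380 CPM in NC livers, with a log2 fold change of -0.77 (edgeR adjusted p = 0.117). For both, every sh2 liver lay below every NC liver. Without sh2 replicate 1, Cyp2c54 passed (edgeR adjusted p = 0.0453), while Cyp2c50 had a log2 fold change of -0.50 (edgeR adjusted p = 0.138). Since these 3 genes share reads, their sum was also taken: 204, 435 and 493 CPM in sh2 livers, against 719, 686 and 834 CPM in NC livers, a log2 ratio of the means of -0.98. The value of 204 CPM came from sh2 replicate 1, and the other sh2 livers also lay below every NC liver. The sum of Cyp2c38 and Cyp2c39 was 40.1, 54.2 and 89.1 CPM in sh2 livers, against 216, 149 and 251 CPM in NC livers, a log2 ratio of -1.75. Within each sum, the value does not depend on how reads were divided between the copies.

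**Figure D2:**
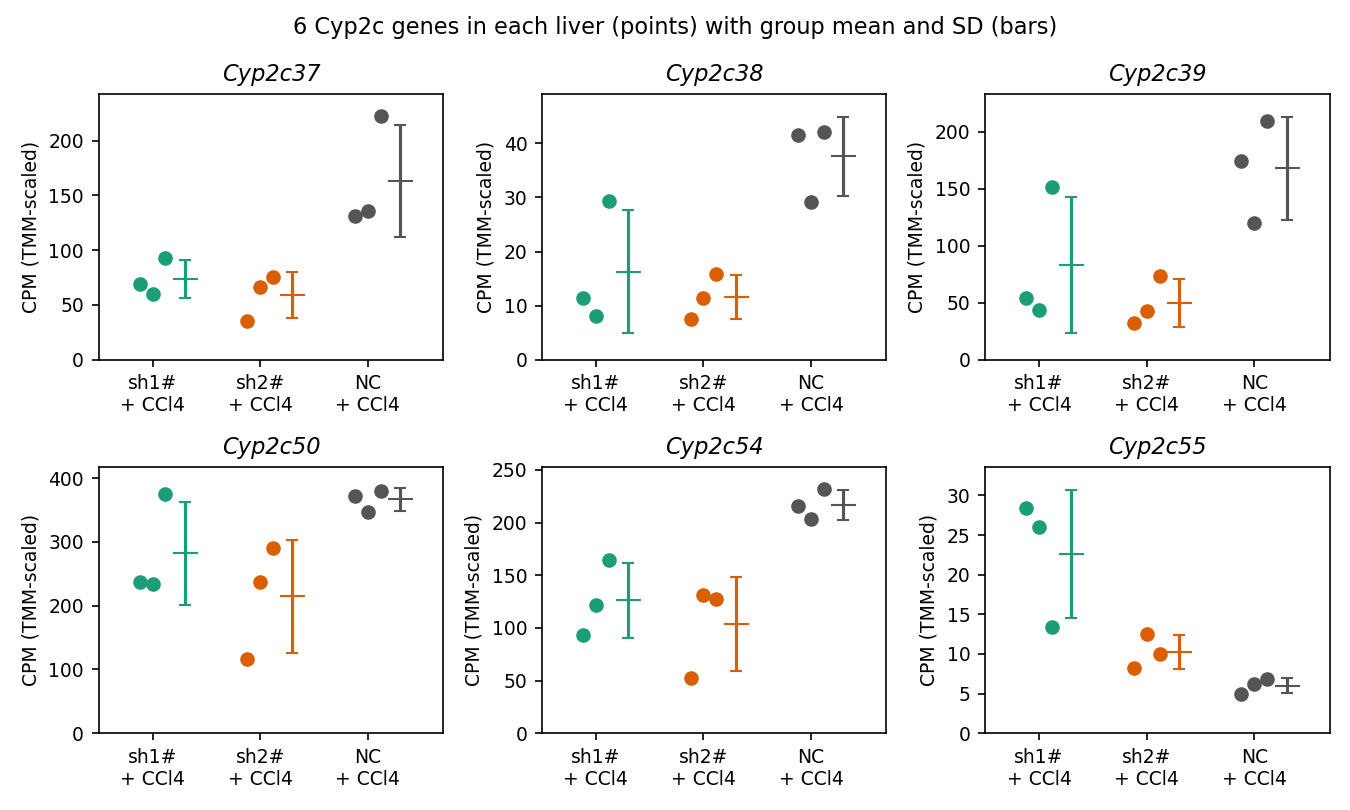
TMM-scaled CPM of Cyp2c37, Cyp2c38, Cyp2c39, Cyp2c50, Cyp2c54 and Cyp2c55 in the sh1, sh2 and NC livers, with 1 point per liver and bars for the mean and SD of 3 livers. The 3 sh2 points lie below the 3 NC points for all but Cyp2c55, where the sh1 points (13.4 to 28.5 CPM) and the sh2 points (8.24 to 12.5 CPM) lie above the NC points (4.93 to 6.85 CPM).

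With shRNA 1, no member passed in edgeR, where 0% of all genes tested passed. The sh1 livers gave less contrast in general, with 7.94% of all genes higher and 9.95% lower at an unadjusted p under 0.05. At that level 3 members were higher (Cyp2c55, Cyp2j6 and Cyp2r1) and 5 lower (Cyp2a22, Cyp2c37, Cyp2c38, Cyp2c54 and Cyp2s1). Every sh1 liver lay above every NC liver in 8 members (15.6% of all genes) and below in 3, Cyp2a22, Cyp2c37 and Cyp2c54 (12.9% of all genes). DESeq2 gave 1 member higher, Cyp2c55 (0.775% of all genes it tested), and 1 lower, Cyp2c37 (2.11%). The log2 fold change of Cyp2c37 for sh1 was -1.14 (standard error 0.30, adjusted p = 0.160 in edgeR and 0.0140 in DESeq2).

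Cyp2c38 and Cyp2c39 were less uniform in sh1 livers than in sh2 livers. Cyp2c38 was measured at 11.5, 8.08 and 29.3 CPM and Cyp2c39 at 54.2, 43.4 and 151 CPM in sh1 livers. In both genes sh1 replicate 3 fell among the NC livers, while the other sh1 livers lay within the range of the sh2 livers. The log2 fold change for sh1 was -1.21 for Cyp2c38 (standard error 0.42, edgeR adjusted p = 0.199) and -1.02 for Cyp2c39 (standard error 0.46, edgeR adjusted p = 0.284). Without sh1 replicate 3 they were -1.94 and -1.78, with edgeR adjusted p-values of 0.0623 and 0.0745. The sum of Cyp2c37, Cyp2c50 and Cyp2c54 was 399, 415 and 632 CPM in sh1 livers, a log2 ratio to NC of -0.63.

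Cyp2c55 was the only tested member in which every shRNA liver lay above every NC liver, and its fold change was larger with shRNA 1. This enzyme hydroxylates arachidonic acid and is raised by activators of CAR and PXR in mouse liver. It was measured at 28.5, 26.0 and 13.4 CPM in sh1 livers and at 8.24, 12.5 and 9.98 CPM in sh2 livers, against 4.93, 6.21 and 6.85 CPM in NC livers. No shRNA liver overlapped the NC livers, and no sh1 liver overlapped the sh2 livers. The log2 fold change was 1.91 for sh1 (standard error 0.28, adjusted p = 0.0783 in edgeR and 1.09e-06 in DESeq2). For sh2 it was 0.77 and passed in neither test (standard error 0.28, adjusted p = 0.102 in edgeR and 0.0617 in DESeq2). Without sh1 replicate 3, the lowest sh1 liver, the sh1 difference passed in edgeR (log2 fold change 2.18, adjusted p = 0.0142).

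The difference between the hairpins was tested directly, sh2 against sh1, and no member passed in edgeR, where 0% of all genes passed. At an unadjusted p under 0.05, 1 member was higher in sh2 livers (Cyp2d34, 5.19% of all genes) and 3 lower (Cyp2a5, Cyp2b10 and Cyp2c55, 5.26% of all genes). Cyp2c55 had a log2 difference of -1.14 (standard error 0.27, adjusted p = 0.377 in edgeR and 0.0300 in DESeq2). It was the 1 member DESeq2 called lower (0.267% of all genes it tested), and 0 were higher (0.249%). For Cyp2c37 the difference between the hairpins was -0.32, with a 95% interval of -0.99 to 0.35. For Cyp2c38 it was -0.49 (95% interval -1.46 to 0.48) and for Cyp2c39 -0.74 (95% interval -1.77 to 0.28). All 3 intervals include 0.

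With both hairpins pooled against NC, a comparison that uses the same 9 libraries again, Cyp2c55 was higher and Cyp2c37 and Cyp2c38 were lower. That is 1 member higher, against 2.38% of all genes tested, and 2 lower, against 3.51%. The log2 fold change of Cyp2c55 was 1.34 (standard error 0.25, edgeR adjusted p = 0.0320). Cyp2c37 had -1.30 (standard error 0.25, edgeR adjusted p = 0.0331) and Cyp2c38 -1.45 (standard error 0.35, edgeR adjusted p = 0.0450), while Cyp2c39 with -1.39 did not pass (edgeR adjusted p = 0.0558). All 6 shRNA livers lay above the NC livers in 1 member, Cyp2c55 (7.76% of all genes), and below them in 3, Cyp2a22, Cyp2c37 and Cyp2c54 (7.15% of all genes). DESeq2 gave 2 members higher, Cyp2c55 and Cyp2r1 (5.89% of all genes it tested), and 7 lower (7.02%). In edgeR the Cyp2c37 call was lost without NC replicate 1 (adjusted p = 0.102), NC replicate 3 (0.139), sh1 replicate 1 (0.0737), sh1 replicate 2 (0.0726) or sh2 replicate 2 (0.0616). The Cyp2c55 call held in edgeR without sh1 replicate 3, sh2 replicate 1 or sh2 replicate 3, and was lost without any of the other 6 libraries (adjusted p up to 0.133). The Cyp2c38 call held in edgeR without sh1 replicate 3 or sh2 replicate 1 and was lost without any of the other 7 (adjusted p up to 0.162).

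Among the other Cyp2c genes, Cyp2c29 varied most between livers of 1 group. It was measured at 619, 440 and 1053 CPM in sh1 livers and at 79.4, 386 and 655 CPM in sh2 livers, against 361, 522 and 489 CPM in NC livers. The low value came from sh2 replicate 1, and the groups overlapped. Cyp2c70 was measured at 465, 480 and 756 CPM in sh1 livers and at 358, 637 and 809 CPM in sh2 livers, against 293, 461 and 370 CPM in NC livers. Every sh1 liver lay above the NC livers, sh2 replicate 1 again lay lowest of its group, and for sh2 the log2 fold change was 0.68 (edgeR adjusted p = 0.160). Without that library Cyp2c70 passed as higher for sh2 (log2 fold change 0.93, edgeR adjusted p = 0.0459). Cyp2c23, an arachidonic acid epoxygenase whose rat counterpart is known from the kidney, was measured at 147, 133 and 64.0 CPM in sh1 livers and at 129, 125 and 105 CPM in sh2 livers, against 66.1, 73.8 and 93.4 CPM in NC livers. Its sh2 livers all lay above the NC livers, with a log2 fold change of 0.62 (edgeR adjusted p = 0.150). Cyp2c67, Cyp2c68 and Cyp2c40 share 43.3 to 72.1% of their stretches with other genes and were read as 1 sum with Cyp2c69. That sum was 250, 247 and 220 CPM in sh1 livers and 279, 342 and 248 CPM in sh2 livers, against 260, 271 and 213 CPM in NC livers, so the groups overlapped. Within it, Cyp2c67 had 188, 247 and 181 CPM in sh2 livers, against 184, 178 and 128 CPM in NC livers, and Cyp2c40 had 7.82, 9.64 and 5.54 CPM in sh2 livers, against 6.57, 6.83 and 4.11 CPM in NC livers.

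The Cyp2c genes lie on chromosome 19, and the differences followed the order of the genes only in part. In order of position the tested members are Cyp2c55, Cyp2c29, Cyp2c38, Cyp2c39, Cyp2c67, Cyp2c68, Cyp2c40, Cyp2c37, Cyp2c54, Cyp2c50, Cyp2c70 and Cyp2c23. The 5 Cyp2c members whose sh2 livers all lay below the NC livers form 2 blocks, Cyp2c38 with Cyp2c39 and Cyp2c37 with Cyp2c54 and Cyp2c50. Between the blocks lie Cyp2c67, Cyp2c68 and Cyp2c40, with log2 fold changes for sh2 of 0.33, -0.04 and 0.39, none of which passed.

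**Figure D3:**
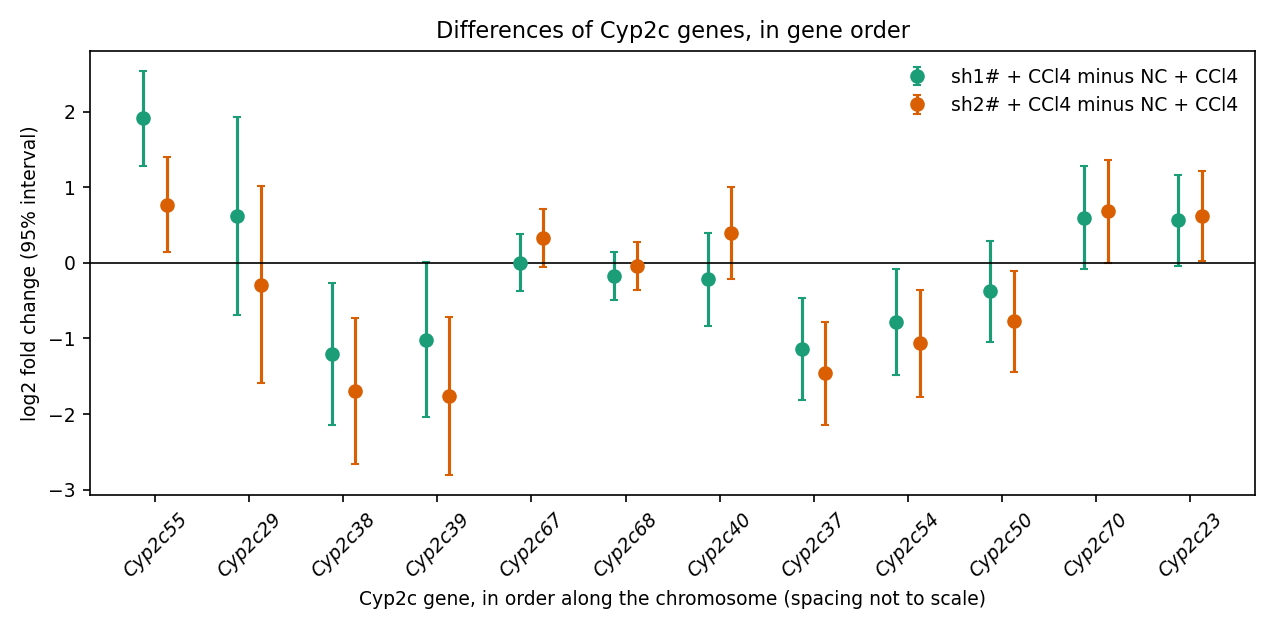
Log2 fold change (vertical axis) of 12 Cyp2c genes in their order along chromosome 19 (horizontal axis, spacing not to scale) for sh1 minus NC and sh2 minus NC, with bars for the 95% interval. Points at -1.69 and -1.76 for Cyp2c38 and Cyp2c39 with sh2, and at -1.46 for Cyp2c37, are parted by Cyp2c67, Cyp2c68 and Cyp2c40 near 0.

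The promoters were set side by side because these genes of 1 subfamily differed in their fold changes. HNF4A is a nuclear receptor that many liver Cyp2 genes depend on, and its core motif CAAAGTCCA (both strands) was found in the 250 bases before the start of Cyp2c65, Cyp2c67, Cyp2c68, Cyp2c40, Cyp2c69 and Cyp2c70. It was not found in those of Cyp2c37, Cyp2c50, Cyp2c38, Cyp2c39, Cyp2c29 or Cyp2c55, and 0.384% of 32851 mouse promoter windows of the same length held it. Only the exact letters were sought, and the windows of Cyp2c37, Cyp2c39 and Cyp2c29 hold caaagtcta, 1 letter away from the motif. The motif TATAAA (both strands), the letters of a TATA box, was found in those of Cyp2c38, Cyp2c55, Cyp2c29, Cyp2c65, Cyp2c67 and Cyp2c70, against 12.4% of all windows. Its distance from the start was not considered. The windows of Cyp2c68, Cyp2c40 and Cyp2c69 and the second window of Cyp2c39 end before the place where Cyp2c67 and Cyp2c38 hold TATAAA. A match at that place could not be seen in them. A match is a match of letters only, and no factor's binding was measured. The windows of Cyp2c37 and Cyp2c50 were 84.3% identical and those of Cyp2c38 and Cyp2c39 71.0%. For Cyp2c39 the second window was used, which is shifted against that of Cyp2c38, and this bears on that identity. Below are 1 promoter of each low block and 1 from the genes between them, from RefSeq (GRCm38.p6), read along the gene's strand, with matches to either motif in capitals.
Cyp2c38, chr19:39463076-39463325, minus strand: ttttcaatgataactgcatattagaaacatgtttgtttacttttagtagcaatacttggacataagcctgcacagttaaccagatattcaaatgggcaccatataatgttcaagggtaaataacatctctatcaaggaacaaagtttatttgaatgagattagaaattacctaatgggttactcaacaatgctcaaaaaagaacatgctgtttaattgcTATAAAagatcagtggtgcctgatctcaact
Cyp2c67, chr19:39649043-39649292, minus strand: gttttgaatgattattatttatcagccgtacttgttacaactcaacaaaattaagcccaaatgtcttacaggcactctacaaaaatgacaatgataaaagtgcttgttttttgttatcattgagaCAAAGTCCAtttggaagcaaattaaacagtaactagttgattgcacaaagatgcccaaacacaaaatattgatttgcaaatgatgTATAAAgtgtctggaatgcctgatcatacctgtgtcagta
Cyp2c37, chr19:39992174-39992423, plus strand: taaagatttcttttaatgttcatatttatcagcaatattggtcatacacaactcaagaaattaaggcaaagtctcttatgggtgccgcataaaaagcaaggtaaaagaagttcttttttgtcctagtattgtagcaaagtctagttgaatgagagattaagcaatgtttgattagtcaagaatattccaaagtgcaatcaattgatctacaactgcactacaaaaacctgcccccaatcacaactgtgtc

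In the Cyp2a genes, none passed. Cyp2a5, the coumarin hydroxylase that rises in several kinds of liver injury, was measured at 45.2, 67.2 and 89.3 CPM in sh1 livers and at 20.8, 51.2 and 32.8 CPM in sh2 livers, against 115, 64.4 and 61.6 CPM in NC livers. All sh2 livers lay below the NC livers (log2 fold change -1.20, edgeR adjusted p = 0.0641). Its near copy Cyp2a4, a steroid hydroxylase higher in female mice, was measured at 12.2, 15.5 and 5.02 CPM in sh1 livers and at 74.1, 6.23 and 2.22 CPM in sh2 livers, against 8.39, 6.72 and 9.65 CPM in NC livers. The log2 fold change for sh2, 1.73 (edgeR adjusted p = 0.252), rests on replicate 1 and was -0.98 without it (edgeR adjusted p = 0.206). In that same liver Cyp2a5 was at its lowest, and the sum of Cyp2a4 and Cyp2a5 was 57.4, 82.7 and 94.3 CPM in sh1 livers and 94.9, 57.5 and 35.0 CPM in sh2 livers, against 123, 71.2 and 71.2 CPM in NC livers. Cyp2a22, at 24.9, 27.6 and 25.6 CPM in sh1 livers and 33.4, 17.4 and 13.3 CPM in sh2 livers, was below the NC livers with 43.2, 34.2 and 44.0 CPM throughout. Its log2 fold change for sh2 was -0.92 (edgeR adjusted p = 0.0619), and it passed without sh2 replicate 1 (edgeR adjusted p = 0.0116). Cyp2a12, its abundant near copy, was measured at 957, 1032 and 860 CPM in sh1 livers and at 977, 791 and 817 CPM in sh2 livers, against 818, 769 and 764 CPM in NC livers.

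In the Cyp2b genes, Cyp2b10, the textbook target of CAR, was measured at 39.4, 19.0 and 17.1 CPM in sh1 livers and at 4.43, 14.01 and 14.13 CPM in sh2 livers, against 9.62, 15.5 and 17.3 CPM in NC livers. The sh2 values all lay below the sh1 values, with a log2 difference of -1.21 between the hairpins (edgeR adjusted p = 0.454). The NC livers overlapped both groups. Cyp2b9, which is higher in female mice, was measured at 8.15, 8.64 and 3.00 CPM in sh1 livers and at 16.3, 2.12 and 5.20 CPM in sh2 livers, against 5.46, 9.07 and 52.5 CPM in NC livers. Its log2 fold change for sh1 was -1.76 (edgeR adjusted p = 0.325), and -0.14 without NC replicate 3, the 1 high liver. The groups overlapped.

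The Cyp2d genes, which metabolise drugs and steroids, gave no gene that passed in any comparison. The log2 fold changes of the 7 tested ones lay between -0.45 and 0.44 against NC. Cyp2d9 was measured at 1308, 1455 and 1257 CPM in sh1 livers and at 768, 1108 and 1394 CPM in sh2 livers, against 1071, 1043 and 953 CPM in NC livers. Every sh1 liver lay above the NC livers, with a log2 fold change of 0.39 (edgeR adjusted p = 0.336). Cyp2d26 was measured at 764, 785 and 702 CPM in sh1 livers and at 933, 894 and 879 CPM in sh2 livers, against 787, 699 and 809 CPM in NC livers. Cyp2d10 overlapped in all groups, with 489, 520 and 482 CPM in sh1, 335, 453 and 553 CPM in sh2 and 486, 455 and 414 CPM in NC livers. Cyp2d34, near the lower limit of the tested members, was measured at 0.877, 0.679 and 0.490 CPM in sh1 livers and at 1.25, 1.03 and 1.52 CPM in sh2 livers, against 0.821, 1.23 and 0.742 CPM in NC livers. All sh2 livers lay above the sh1 livers, and the log2 difference of 0.88 did not pass (edgeR adjusted p = 0.465).

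The single-gene subfamilies split. Cyp2r1, which hydroxylates vitamin D in the liver, was measured at 6.52, 7.34 and 7.84 CPM in sh1 livers and at 5.19, 5.01 and 5.82 CPM in sh2 livers, against 4.05, 5.10 and 2.06 CPM in NC livers. Every sh1 liver was above the NC livers, and its log2 fold change for sh1 was 0.95 (standard error 0.28, edgeR adjusted p = 0.176). Cyp2u1, a fatty acid hydroxylase, was measured at 2.07, 2.84 and 1.04 CPM in sh1 livers and at 2.49, 3.41 and 2.36 CPM in sh2 livers, against 1.06, 1.79 and 0.857 CPM in NC livers. Its sh2 livers were above the NC livers, with a log2 fold change of 1.15 (edgeR adjusted p = 0.0932). Cyp2g1, known from olfactory tissue, was measured at 0.564, 0.987 and 1.90 CPM in sh1 livers and at 0.623, 0.964 and 0.277 CPM in sh2 livers, against 3.34, 1.68 and 1.77 CPM in NC livers. Its log2 fold change of -1.84 for sh2 was the lowest in the family but rests on few reads (edgeR adjusted p = 0.0600). Cyp2s1, an enzyme mostly of epithelia outside the liver, was measured at 1.44, 1.97 and 0.735 CPM in sh1 livers and at 1.38, 0.707 and 1.39 CPM in sh2 livers, against 2.93, 1.68 and 4.97 CPM in NC livers. All its sh2 livers lay below the NC livers (log2 fold change -1.46, edgeR adjusted p = 0.0788). Cyp2f2 was measured at 1269, 1532 and 1421 CPM in sh1 livers and at 721, 1296 and 1603 CPM in sh2 livers, against 1123, 1151 and 944 CPM in NC livers, so the sh1 livers lay above and the sh2 livers on both sides.

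Of the Cyp2j genes, which make epoxides of arachidonic acid, 3 were tested and none passed. Cyp2j5 was measured at 400, 414 and 500 CPM in sh1 livers and at 309, 334 and 493 CPM in sh2 livers, against 334, 366 and 320 CPM in NC livers. Cyp2j6 was measured at 91.4, 94.8 and 90.4 CPM in sh1 livers and at 70.0, 69.5 and 101 CPM in sh2 livers, against 64.8, 72.6 and 59.8 CPM in NC livers. In both genes every sh1 liver was above the NC livers, with a log2 fold change for Cyp2j6 of 0.49 (standard error 0.15, edgeR adjusted p = 0.178). Cyp2j9 lay between 6.44 and 13.4 CPM in the 9 livers, with overlapping groups.

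**Figure D4:**
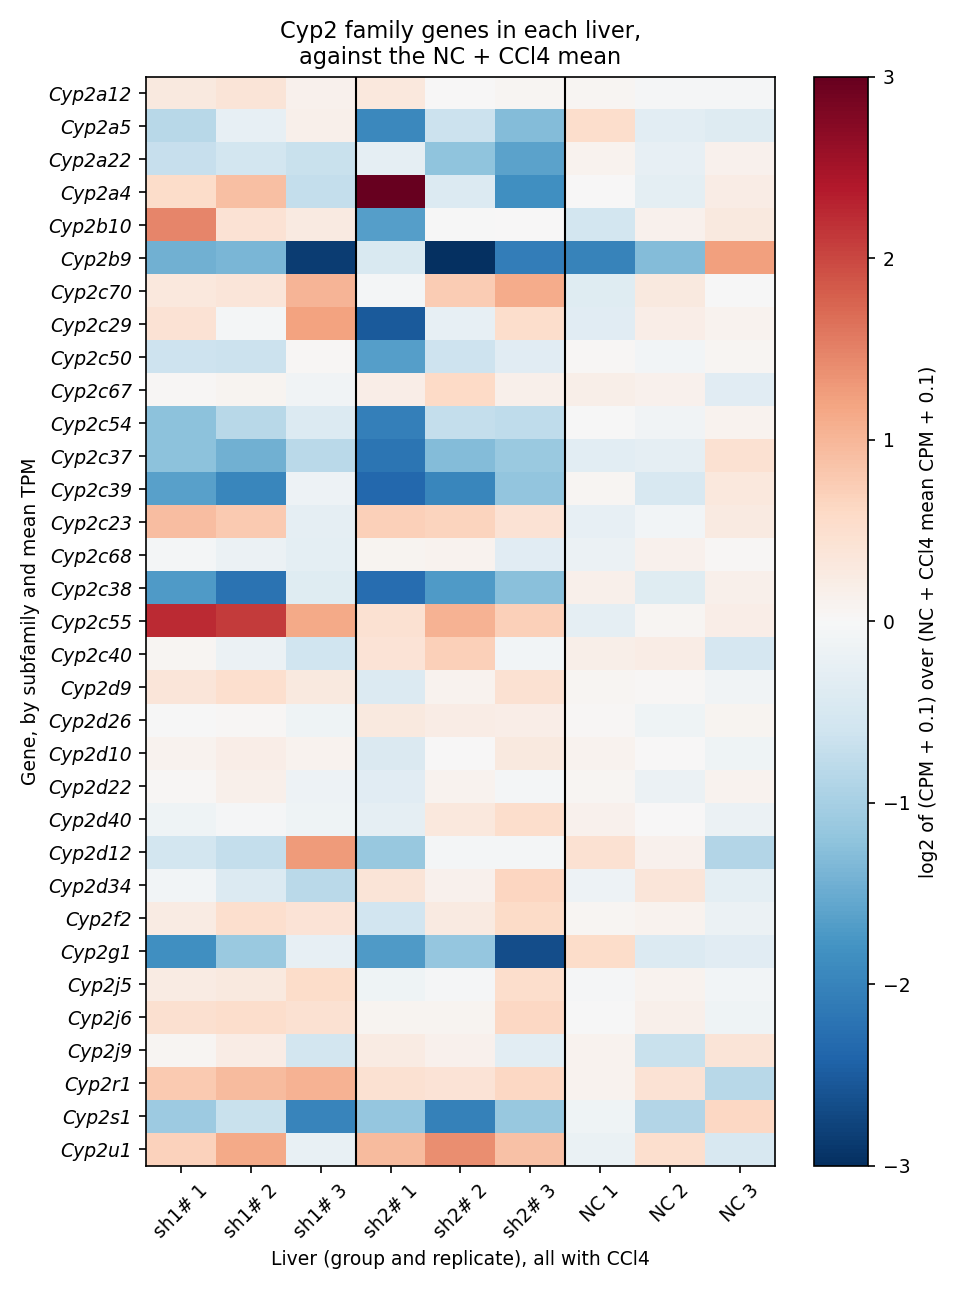
Log2 of each liver's CPM plus 0.1 over the NC mean CPM plus 0.1 for the 33 tested genes (rows, by subfamily and mean TPM) in the 9 livers (columns, sh1, sh2 and NC), where red is higher, blue is lower and values past -3 or 3 take the end colour. Cyp2c37, Cyp2c38, Cyp2c39 and Cyp2c54 are blue in most of the shRNA livers, and Cyp2c55 is red in all 6 of them. In sh1 replicate 3, Cyp2c38 and Cyp2c39 are pale (29.3 and 151 CPM, against NC means of 37.6 and 168). The single dark red cell is in sh2 replicate 1, Cyp2a4 at 74.1 CPM.

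Groups of members were also counted by known traits. Of the 9 tested members of a list of female-biased genes, 3 were lower in sh2 livers and 0 higher, the same 3 as above, with a median log2 fold change of -1.46 (sh1 -0.97, where 0 passed). Of the other 6, none passed: for sh2 the log2 fold change was 1.73 for Cyp2a4 (-0.98 without sh2 replicate 1), 0.39 for Cyp2c40, -0.04 for Cyp2c68, -0.38 for Cyp2b10, -1.51 for Cyp2b9 and -1.84 for Cyp2g1. Of the 3 tested male-biased members, 0 passed, with medians of 0.39 for sh1 and 0.17 for sh2. Of 12 pericentral members, 2 were lower in sh2 livers, Cyp2c37 and Cyp2c38, with a median of -0.33 (sh1 -0.06). Of 8 tested members targeted by CAR, 1 was lower in sh2 livers, Cyp2c37, with a median of -0.92 (sh1 -0.32). Of 12 tested members listed as arachidonic acid epoxygenases, 3 were lower in sh2 livers, again Cyp2c37, Cyp2c38 and Cyp2c39. The median of the list was -0.13 (sh1 -0.14). Some of its members, such as Cyp2c37 and Cyp2c55, are described above as hydroxylases. Over all genes tested, 3.89% were lower in sh2 livers. The lists share members and their counts are made up of the same 3 genes, so they are not separate evidence.

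Genes that serve or control the family were counted in the same way. Of 11 electron donors and partners, such as Por, and of 23 nuclear receptors and other regulators, such as Hnf4a and the CAR gene Nr1i3, 0 passed in any of the comparisons in edgeR. DESeq2 gave 1 of the first list higher in sh2 livers (Cyb5r3) and 1 lower (Hmox1). Of the second list it gave 1 higher (Foxa3) and 2 lower (Nr1i3 and Ppargc1a). Of all genes that DESeq2 tested, 8.33% were higher in sh2 livers and 7.28% lower. Nr1i3 had a log2 fold change of -0.65 for sh2 (adjusted p = 0.0772 in edgeR and 0.0337 in DESeq2). For sh1 it was also -0.65 (edgeR adjusted p = 0.189), and every sh1 liver lay below every NC liver. The summed CPM was 5075 to 5623 in sh1, 4263 to 6006 in sh2 and 4762 to 5290 in NC livers for the first list, and 2637 to 2763, 2601 to 2720 and 2558 to 2752 for the second. Of 13 tested regulators of sex-biased genes, 0 passed against NC in edgeR or in DESeq2. The 23 tested other targets of CAR and PXR summed to 18620 to 19160 CPM in sh1 livers, 8979 to 15300 in sh2 livers and 13510 to 14120 in NC livers, so that every sh1 liver lay above every NC liver. Much of this sum is Cyp3a11, with 8719 to 9745 CPM in sh1, 2728 to 6867 in sh2 and 6390 to 6614 in NC livers. Cyp3a11 did not pass for sh1 (edgeR adjusted p = 0.377). Of these 23, 1 was lower in sh2 livers (3.89% of all genes tested), Abcc3, a bile acid exporter (log2 fold change -0.84, edgeR adjusted p = 0.0423). For sh1, 0 passed in edgeR, while DESeq2 gave 4 higher (Gsta1, Gstm1, Gstm3 and Ugt2b35) and 0 lower, against 0.775% and 2.11% of all genes. For sh2, DESeq2 gave 2 higher (Gsta1 and Gstm3) and 1 lower (Abcc3). In the comparison of both hairpins with NC, 1 was higher (2.38% of all genes), Gstm3, a glutathione transferase (log2 fold change 1.68, edgeR adjusted p = 0.0292). Its log2 fold change for sh1 was 2.42 (adjusted p = 0.0783 in edgeR and 1.21e-09 in DESeq2).

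Cell type markers give the context of these whole-liver values, in which fewer cells of a type and less RNA per cell cannot be told apart. The 10 hepatocyte markers summed to 97520 to 149900 CPM in sh1 livers, 121300 to 153300 in sh2 livers and 102000 to 131100 in NC livers. Of these 10, 1 was lower in sh2 livers and 0 higher, against 3.89% and 4.71% of all genes tested. The lower one was Glul, glutamine synthetase of the hepatocytes next to the central vein, where Cyp2c37 is also expressed (log2 fold change -0.86, edgeR adjusted p = 0.0411). The 10 monocyte and macrophage markers summed to 436 to 682 CPM in sh1 livers, 431 to 467 in sh2 livers and 743 to 1262 in NC livers. Of them, 4 were lower in sh2 livers (Csf1r, Ccr2, Itgam and Lyz2), again against 3.89% of all genes. Of 9 stellate cell and myofibroblast markers, 1 was lower in sh2 livers, Dcn, and their sum was 511 to 918 CPM in sh1, 608 to 1165 in sh2 and 877 to 1483 in NC livers. The part of these shifts in the Cyp2c differences was not tested. Markers of lung epithelium summed to at most 5.21 CPM in any liver and those of exocrine pancreas to at most 6.77 CPM.

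The 7 members that the filter left out had 53 counts or fewer over all 9 libraries together, and no comparison is drawn from them. Cyp2b13 had 1 to 13 counts per library. Cyp2d11 and Cyp2j8 reached 6 counts at most, Cyp2c65 3, Cyp2c69 2, and Cyp2j11 and Cyp2j13 1 each. Their mean TPM ran between 0.00667 and 0.376, and at this depth differences between groups in them were not detectable.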

How the data were processed

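RNA was extracted from 9 livers, 3 per group, and sequenced as single-end 50-base reads on the BGIseq500 platform. The authors deposited expected counts and TPM per gene. Per the submitters' processing notes, reads went through BWA, Bowtie2 and RSEM (no versions stated). The notes list the build as hg19, but the gene numbers are of mouse genes, with 17198 matched to RefSeq, and no source used here explains hg19. Of the expected counts deposited by the authors, 8.15% were not whole, since RSEM divides reads shared between genes. The TPM values deposited by the authors are scaled to transcript length and summed reads, and were used for levels between genes. In 22 rows a symbol turned into a date was restored from the gene number. FPKM values, which the authors scaled to library size and transcript length before they were deposited, were not used, and lnc-Helf itself is not analysed here.

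Expected counts were rounded and tested with edgeR 4.0.16 in R 4.3.3 (TMM factors 0.882 to 1.07, filterByExpr with its minimum count of 10, quasi-likelihood test, all 9 libraries in 1 fit, Benjamini-Hochberg adjustment over 13059 genes). The biological coefficient of variation was 19.9%. Replicates are separate mice by the labels, and no library was found deposited under 2 names. The alternatives comprised DESeq2 1.42.0, several normalization factors and low-count filters, fits restricted to the compared groups, a replicate block, limma-trend (limma 3.58.1) on log2(TPM + 1) and log2(TPM + 0.1), robust fitting and leaving out each library. Values per liver are given for Cyp2c37, for members that passed, for the 10 highest by TPM, for the highest of each subfamily and for the 3 highest and 3 lowest fold changes of each comparison; Cyp2a22, Cyp2c23, Cyp2c54 and Cyp2j6 were added after their values were seen. The members and gene lists were chosen with earlier results of these data known. Shared stretches and coding identities were computed from GENCODE transcripts. Promoters came from RefSeq, where of the Cyp2c genes Cyp2c54 and Cyp2c23 had no match. Some members of other subfamilies, such as Cyp2g1, had none either.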

Additional observations from a re-analysis of the deposited data

Results flagged for a closer look

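Cyp2c55 was picked out because the effects of the hairpins differed in a direct test by DESeq2. It had 8.24, 12.5 and 9.98 CPM in sh2 livers, against 28.5, 26.0 and 13.4 CPM in sh1 livers, with a DESeq2 adjusted p of 0.0300. In edgeR the same difference (log2 difference -1.14) had an adjusted p of 0.377 and did not pass, and over the 9 edgeR fits that left out a library the adjusted p was 0.119 to 0.845. No cause was tested.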

How the results depend on the processing

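For the fold changes given above, 51 were recomputed under 21 alternatives, which gave 1054 values. Of these, 948 kept their direction and side of the threshold, 48 lost the call, 52 gained one and 6 changed sign. All 48 losses fell on the calls made: Cyp2c37, Cyp2c38 and Cyp2c39 with sh2, and Cyp2c37, Cyp2c38 and Cyp2c55 with both hairpins. Most of the 948 are results that passed in neither fit, so they do not measure how stable the calls were. The sign changes were in Cyp2a4 without sh2 replicate 1 (-0.98 for sh2, -1.36 for sh2 against sh1, -0.30 for both hairpins), in Cyp2a4 for sh2 against sh1 with limma-trend on log2(TPM + 0.1) (-0.048), and without sh1 replicate 3 in Cyp2c38 (0.25) and Cyp2c39 (0.021) for sh2 against sh1. Over the fits that left out a library, Cyp2a4 lay between -0.98 and 2.27 for sh2, -1.36 and 1.88 for sh2 against sh1 and -0.30 and 1.32 for both hairpins, and for sh2 against sh1 Cyp2c38 lay between -0.81 and 0.25 and Cyp2c39 between -1.14 and 0.021. None of these passed on either side.

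The count of members lower with sh2 (3) was 8 in DESeq2, 8 with limma-trend at either pseudocount, 5 with library size only, 1 with robust fitting, 0 with the replicate block and 0 to 5 when 1 library was left out. With a fold change above 2 as well it was 7 in DESeq2, 8 and 8 in limma-trend, 5, 1, 0 and 0 to 5 in the same order. These fits also differed in how many of all genes they called for sh2 in either direction, with 1123 in the main fit. DESeq2 called 2067 genes, limma-trend 1657 and 1556 at pseudocounts of 1 and 0.1, and library size only 1355. Robust fitting called 1103, the block 0, and the fits without 1 library 0 to 1658. The count higher with sh2 (0) was 0 to 2 when a library was left out. For sh1, DESeq2 gave 1 higher and 1 lower, with the same counts above a fold change of 2, and leaving out a library gave 0 to 1 higher. For sh2 against sh1, DESeq2 gave 1 lower, also above a fold change of 2. For both hairpins, the count higher (1) was 2 in DESeq2, 0 with the replicate block, 0 with limma-trend on log2(TPM + 1) without a filter and 0 to 2 when a library was left out, and with a fold change above 2 it was 0 with the block, 0 with limma-trend on log2(TPM + 1) with or without a filter, and 0 to 1. The count lower (2) was 7 in DESeq2, 5 with library size only, 6 and 5 with limma-trend at pseudocounts of 1 and 0.1, 1 with robust fitting, 0 with the block and 0 to 5 when a library was left out. Above a fold change of 2 these were 5, 5, 5 and 5, 1, 0 and 0 to 5. Of all genes, the main fit called 770 for both hairpins in either direction. DESeq2 called 1753, library size only 1214, and limma-trend 1152 and 959 at pseudocounts of 1 and 0.1. Robust fitting called 778, the block 0, and the fits without 1 library 0 to 1710. The summed level in CPM in place of TPM was 1.15 for sh1 over NC and 1.02 for sh2 over NC. The cause of these changes was not tested, except that fewer libraries enter where 1 is left out.

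Same-numbered livers had correlations of their deviations between -0.423 and 0.248. Livers with different numbers were not set beside them, so whether the replicate numbers pair the samples was not settled. With the number as a block, 0 of all genes passed, and the edgeR adjusted p for sh2 was 0.0516 for Cyp2c37, 0.0521 for Cyp2c38 and 0.0516 for Cyp2c39. Library size alone moved the median of all genes to -0.15 for sh2, and limma-trend on log2(TPM + 0.1) to -0.23, so lower calls in those fits are relative to that shift. Counts of genes called in all were 1123 for sh2 in edgeR and 2067 in DESeq2, and 0 for sh1 in edgeR and 372 in DESeq2. Members with a few CPM, such as Cyp2g1, Cyp2s1 and Cyp2u1, rest on few reads. Members whose expected counts are not whole, such as Cyp2c37, Cyp2c50 and Cyp2c54, rest on how the authors' model divided shared reads.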
